A study of Mus musculus with 6 samples.

Results

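The 49 genes described here are interferon-stimulated effector genes: the products that type I interferon switches on in a cell and that act against viruses. They were taken by symbol from a given list, and all 49 were found among the 55487 genes of the deposited count table. They fall into 10 subfamilies: 4 Ifit genes, 6 Oas genes, 6 Ifi200 genes, 4 Mx and viperin genes, 4 genes of the ISG15 system, 6 of the Parp group, 4 membrane proteins, 3 nucleases and helicases, 4 nuclear body and chromatin proteins, and 8 others. The RNA came from RAW264.7, a line of mouse macrophages able to turn into osteoclasts. The libraries titled SMART-Cas9 (3, genotype RhoA knockout, written RhoA KO below) were set against 3 titled Control with the genotype wt, in a study of what macrophages without RhoA do to bone in arthritis. The labels give RANKL and M-CSF, the cytokines used to drive osteoclast formation, as the treatment of all 6 samples, while the design text of the series calls the control cells untreated. No control carried Cas9 without RhoA targeting, so effects of the Cas9 procedure and of the edit cannot be told apart, and the labels do not say whether the edited cells were a clone or a pool.

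Type I interferons bind the receptor pair IFNAR1 and IFNAR2 and activate the kinases JAK1 and TYK2. These phosphorylate STAT proteins, which join IRF9 and bind the interferon-stimulated response element, a short promoter sequence built from repeated GAAA blocks. The induced effectors bind or cut foreign RNA, block viral entry and budding, attach the ubiquitin-like protein ISG15 to other proteins, or sense nucleic acid. Macrophages keep a low level of many of these genes through interferon that they release themselves.

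The promoter sequences show how far the members share that element, and those of Isg15, of the close copies Ifit3 and Ifit3b, and of each pair compared by a ratio below in which both genes have an entry are printed here. The letters GAAANNGAAA were searched on both strands of the 250 bases before each RefSeq gene start (build GRCm38.p6), with overlapping matches counted separately. They were found in 16 of the 38 members with a promoter entry, 42.1%, and in 936 of all 27025 genes with one, 3.46%. Members with a match were Bst2, Ddx60, Ifi203, Ifi205, Ifi207, Ifi211, Ifit1, Ifit3, Ifit3b, Ifitm2, Isg15, Oas1a, Oas1g, Oas3, Phf11b and Rsad2. The members without an entry were Ifi204, Ifi27l2a, Mx1, Mx2, Oas2, Parp10, Parp14, Parp9, Rtp4, Tor3a and Usp18. For the letters TTCNNNGAA, the core bound by STAT homodimers, the shares were 4 of 38 members, 10.5%, and 8.13% of all genes. Each stretch below is the 160 bases before the RefSeq start, written 5′ to 3′ on the strand of the gene, with matches of GAAANNGAAA or its reverse complement in capitals; Ifit2 has 2 RefSeq starts, and the stretch before the first is shown.
Ifit1, chr19:34640729-34640888, plus strand: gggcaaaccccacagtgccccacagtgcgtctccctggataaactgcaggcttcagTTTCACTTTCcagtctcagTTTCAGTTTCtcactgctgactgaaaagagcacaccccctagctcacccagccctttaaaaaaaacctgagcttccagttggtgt
Ifit2, chr19:34550534-34550693, plus strand: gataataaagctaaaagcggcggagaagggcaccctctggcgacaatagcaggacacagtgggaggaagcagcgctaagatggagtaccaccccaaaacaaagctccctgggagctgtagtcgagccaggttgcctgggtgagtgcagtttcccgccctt
Ifit3, chr19:34583369-34583528, plus strand: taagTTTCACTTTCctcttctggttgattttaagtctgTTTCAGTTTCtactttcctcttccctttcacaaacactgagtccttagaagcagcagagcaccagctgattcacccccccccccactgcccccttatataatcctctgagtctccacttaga
Ifit3b, chr19:34607797-34607956, plus strand: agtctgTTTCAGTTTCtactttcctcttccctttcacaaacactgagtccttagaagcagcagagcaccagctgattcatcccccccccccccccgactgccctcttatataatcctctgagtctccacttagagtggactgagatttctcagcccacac
Isg15, chr4:156200819-156200978, minus strand: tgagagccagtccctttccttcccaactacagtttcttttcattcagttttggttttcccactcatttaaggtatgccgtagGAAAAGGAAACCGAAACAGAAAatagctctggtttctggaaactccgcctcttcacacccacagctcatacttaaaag
Rsad2, chr12:26456453-26456612, minus strand: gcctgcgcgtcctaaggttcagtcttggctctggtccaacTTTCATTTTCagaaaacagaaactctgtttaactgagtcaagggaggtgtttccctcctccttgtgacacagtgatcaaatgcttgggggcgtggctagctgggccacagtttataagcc
Cmpk2, chr12:26469055-26469214, plus strand: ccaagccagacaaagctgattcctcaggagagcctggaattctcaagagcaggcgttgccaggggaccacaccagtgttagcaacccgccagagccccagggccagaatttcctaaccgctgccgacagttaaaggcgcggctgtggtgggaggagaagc
Oas1a, chr5:120907526-120907685, minus strand: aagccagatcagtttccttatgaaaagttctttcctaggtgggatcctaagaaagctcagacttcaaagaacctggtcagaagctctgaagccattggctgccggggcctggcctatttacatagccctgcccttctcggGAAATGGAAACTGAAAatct
Oas1g, chr5:120887614-120887773, minus strand: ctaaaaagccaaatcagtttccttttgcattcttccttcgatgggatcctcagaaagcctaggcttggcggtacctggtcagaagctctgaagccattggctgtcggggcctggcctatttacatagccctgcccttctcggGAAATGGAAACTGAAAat
Ifi209, chr1:173630699-173630858, plus strand: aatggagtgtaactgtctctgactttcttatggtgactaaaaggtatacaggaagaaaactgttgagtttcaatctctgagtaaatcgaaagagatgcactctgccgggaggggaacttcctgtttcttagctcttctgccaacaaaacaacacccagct
Ifi207, chr1:173741810-173741969, minus strand: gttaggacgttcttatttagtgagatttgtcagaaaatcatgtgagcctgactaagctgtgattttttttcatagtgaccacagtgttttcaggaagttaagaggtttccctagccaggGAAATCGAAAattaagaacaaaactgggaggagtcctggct
Ifitm2, chr7:140955962-140956121, minus strand: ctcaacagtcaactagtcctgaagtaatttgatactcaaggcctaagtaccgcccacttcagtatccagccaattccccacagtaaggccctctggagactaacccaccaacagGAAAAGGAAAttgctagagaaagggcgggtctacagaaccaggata
Ifitm3, chr7:141010745-141010904, minus strand: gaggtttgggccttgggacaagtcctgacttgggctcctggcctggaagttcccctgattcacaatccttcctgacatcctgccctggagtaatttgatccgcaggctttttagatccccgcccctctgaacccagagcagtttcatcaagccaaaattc
Ifit1 held separate matches that start at -104 and -85 counted from the gene start, and Isg15 a run of 3 overlapping matches from -78 to -66. Over 250 bases, identical bases filled 212 of 256 alignment columns for Oas1a and Oas1g (82.8%). They filled 216 of 282 for Ifit3 and Ifit3b (76.6%) and 139 of 283 for Ifitm2 and Ifitm3 (49.1%). Unpaired bases count as differences in these shares. The Ifit3 and Ifit3b windows are shifted against each other, with the same match starting at -122 in Ifit3 and at -154 in Ifit3b. The shares therefore do not rank how alike the paired bases are. The Ifit2, Cmpk2, Ifi209 and Ifitm3 stretches held 0 matches, which says only that these letters are absent from the windows.

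The libraries held 71777994, 79639979 and 81830819 counts for RhoA KO and 79918899, 60198645 and 66104600 for control. The labels could not be checked by a loss of the targeted transcript: Rhoa held 2805, 2670 and 2395 counts in the RhoA KO libraries, against 1655, 1510 and 1440 counts in control libraries. On the scale of counts divided by TMM-scaled library size (CPM), its log2 fold change was 0.41 ± 0.12 (SE), higher in the libraries labelled RhoA knockout, with an adjusted p of 0.0136 by edgeR's quasi-likelihood test with Benjamini-Hochberg adjustment. Without control replicate 1 or RhoA KO replicate 1 that call was lost (edgeR adjusted p = 0.0645 and 0.0741). An edit that disrupts the protein need not lower the transcript, so each direction given here belongs to the labels and not to a measured loss of RhoA. Replicate 3 stood apart from the others in both groups, and results without both of these libraries are given where they matter. Macrophage markers were present, 4 of 9 higher and 4 of 9 lower, beside 21.0% higher and 22.3% lower among all 12930 genes tested. All 5 fibroblast markers were at 0 in every library, as were 4 of 5 B cell markers, 5 of 6 T and NK cell markers, and 3 of 5 plasmacytoid dendritic cell markers (Siglech, Ly6d and Klk1). Of the other two, Ccr9 had 5, 0 and 8 counts in the RhoA KO libraries, against 0, 0 and 0 counts in control libraries, and Cox6a2 passed as higher, with 16.9, 20.5 and 23.0 CPM in the RhoA KO libraries, against 10.7, 10.01 and 10.1 CPM in control libraries (log2 fold change 0.97 ± 0.14 (SE), edgeR adjusted p = 1.73e-04). Of the 9 osteoclast markers 6 passed the filter on low counts, and Calcr and Oscar were at 0 in every library. Mmp9, Acp5 and Dcstamp were 4.16-, 2.70- and 1.70-fold lower, Ctsk and Atp6v0d2 were 2.14- and 1.53-fold higher, and Nfatc1 was not called. The list summed to 27.2 to 27.3 CPM in the RhoA KO libraries and 23.9 to 27.7 CPM in control libraries. Epithelial markers summed to 0 CPM in the RhoA KO libraries and 0 to 1.44 CPM in control libraries. All of their counts lay in control replicate 1, which held 39 for Epcam, 24 for Krt8 and 48 for Krt18. All 8 cycling genes were higher, beside 21.0% of all genes tested. Their summed levels were 649 to 674 CPM in the RhoA KO libraries and 194 to 241 CPM in control libraries. Mitochondrial genes took 12.3, 11.9 and 9.95% of RhoA KO counts, against 8.68, 8.69 and 7.01% of control counts. Whether these markers, cycling or mitochondrial content have a part in the results below was not tested. Whether the replicates were separate cultures is not stated, and p-values therefore cover the spread among these libraries alone, possibly technical.

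Nearly the whole list was lower in the RhoA KO libraries. Of the 49 members 48 had enough counts for the test, and 43 of these were called lower at an adjusted p under 0.05, against 22.3% of all 12930 genes tested. Only Ifitm2 was called higher (21.0% of all genes were), and Dtx3l, Ifitm3, Ifi27l2a and Ifi35 did not pass in either direction. Either way, 43.2% of all genes were called, so a call alone was common in this comparison, and members are read against the shares of all genes. At least 2-fold lower were 42 members, against 14.7% of all genes, and at least 4-fold lower were 27, against 4.63%. Of these 27, 12 were at least 8-fold lower, and 4 at least 16-fold: Ifi209, Rsad2, Isg15 and Ifit2. The median log2 fold change of the 48 tested members was -2.12, a 4.34-fold lower level, with quartiles of -2.96 and -1.60, beside -0.03 for all genes tested. With scaling by library totals alone, the all-gene median moved to 0.15 and the share of calls that were higher to 59.8%, against 48.5% with TMM. On that scale 41 members were lower, 1 was higher and their median was -1.96.

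The groups separated at the level of single libraries. Every RhoA KO library was below every control library for 44 of the 48 tested members, against 28.3% of all genes, and above for Ifitm2, against 27.5% of all genes. Ifitm3, Ifi27l2a and Ifi35 overlapped. Without Ifitm2 and Ifitm3, the members with the highest levels per length, the list held 0.0922, 0.0898 and 0.0827% of the counts in the RhoA KO libraries, against 0.257, 0.261 and 0.246% in control libraries. Per exon length (TPM, a share of all length-scaled counts), the same 47 genes summed to 826, 786 and 793 TPM in the RhoA KO libraries, against 1719, 1719.9 and 1688 TPM in control libraries. Fewer cells with the programme and less RNA per cell cannot be told apart in bulk RNA. The heat map shows each tested member in each library, and the plot of fold changes gives their errors.

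**Figure D1:**
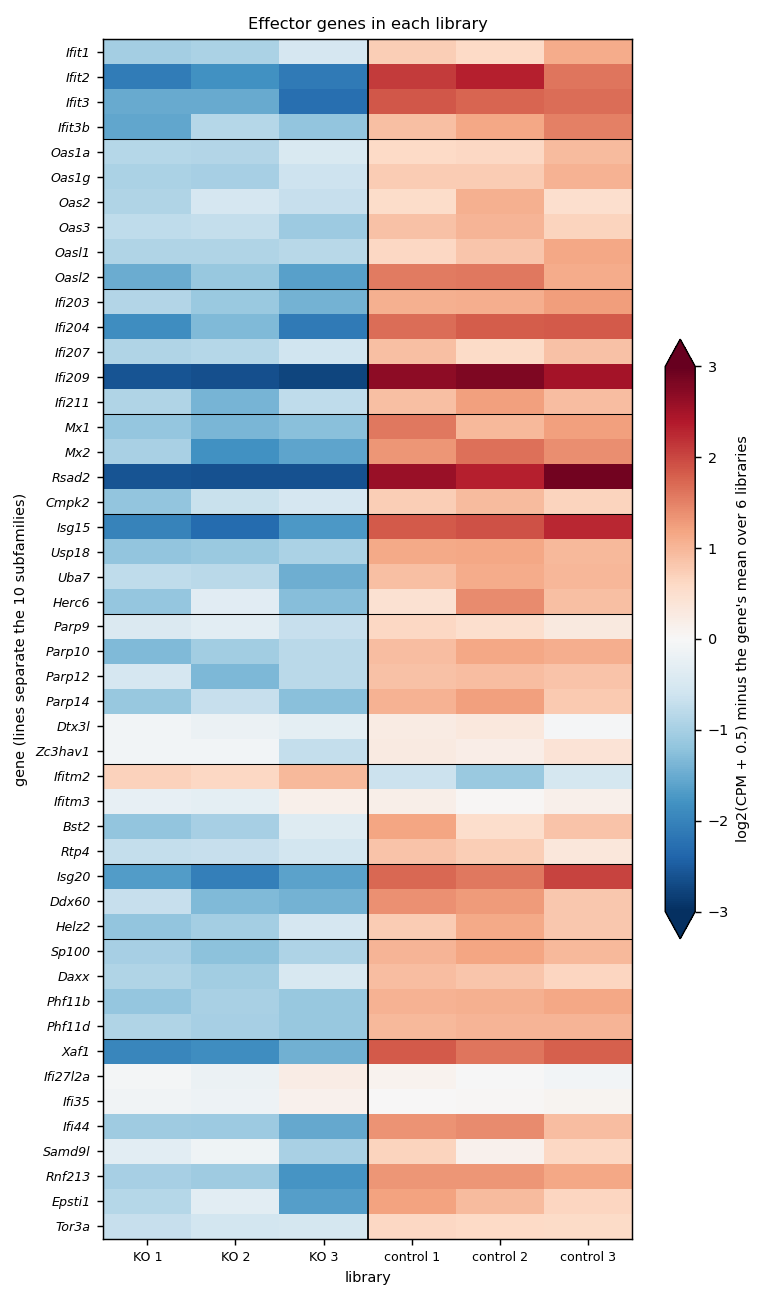
Level of the 48 tested members (rows, in 10 subfamilies separated by lines) in the 3 RhoA KO and 3 control libraries (columns), as log2(CPM + 0.5) minus the gene's mean over the 6 libraries. Blue is below and red above that mean; 44 members are lower in every RhoA KO library, and Ifitm2 is the row with the opposite order.

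**Figure D2:**
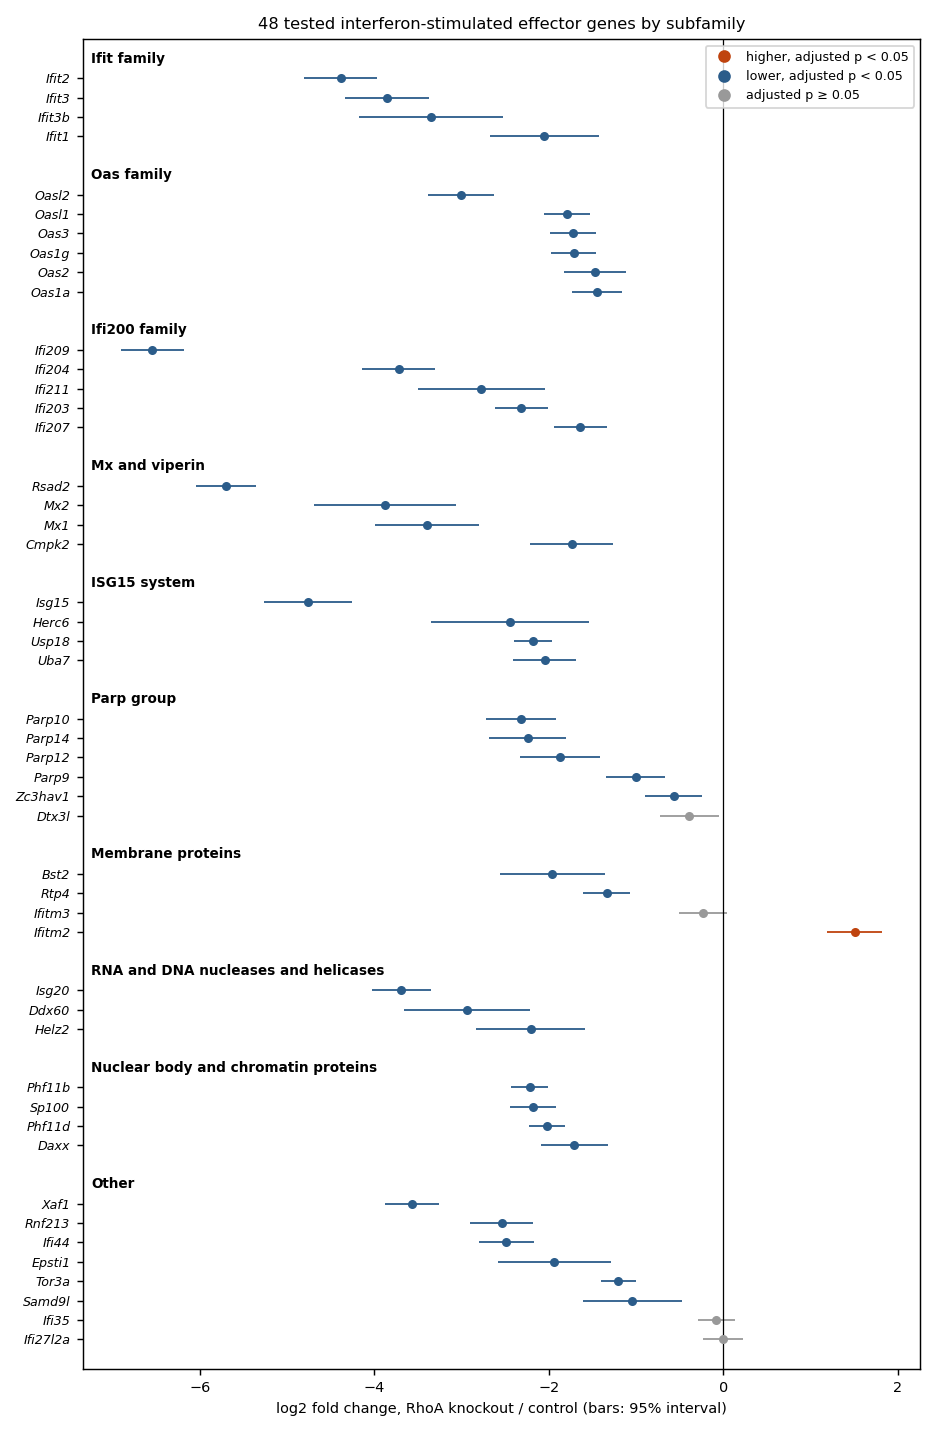
Log2 fold change of RhoA KO over control for the 48 tested members, by subfamily, with bars of 95% intervals from the edgeR fit. Blue points passed as lower, the red point (Ifitm2) as higher, and the 4 grey points did not pass; Ifi209 lies farthest left at -6.55.

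All 4 Ifit genes, of a family with members that bind viral RNA with foreign ends and block its translation, were lower. Their median log2 fold change was -3.60. They lie in a cluster on chromosome 19, from 34550694 to 34650009 (GRCm38), with Ifit1bl1 and Ifit1bl2 between them. Ifit2 held 1.63, 2.10 and 1.60 CPM in the RhoA KO libraries, against 38.8, 45.9 and 27.4 CPM in control libraries. All 3 RhoA KO libraries lay below every control library, a 20.9-fold lower level (log2 fold change -4.39 ± 0.21 (SE), edgeR adjusted p = 3.27e-08). Ifit3, whose human counterpart forms complexes with IFIT1 and IFIT2, held 1.84, 1.81 and 0.894 CPM in the RhoA KO libraries, against 23.5, 21.7 and 20.8 CPM in control libraries. Its RhoA KO libraries were again all below control, replicate 3 the lowest (log2 fold change -3.85 ± 0.25 (SE), edgeR adjusted p = 2.48e-07). Ifit3b is a close copy of Ifit3, 97.8% identical over 1700 bp, and reads may have been split between them; its log2 fold change was -3.35 ± 0.42 (SE; edgeR adjusted p = 5.03e-05). Ifit1 changed least of the 4, at -2.05 ± 0.32 (SE; edgeR adjusted p = 2.52e-04). Set against Ifit2 within each library, Ifit1 per length stood at 0.717, 0.606 and 1.25 in the RhoA KO libraries, against 0.146, 0.111 and 0.280 in control libraries. The ratio was higher in all 3 RhoA KO libraries, so the family's make-up differed between the groups as well as its sum, which was 3.18 TPM in the RhoA KO libraries and 38.3 TPM in control libraries.

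The 6 Oas genes were all lower, with a median log2 fold change of -1.72. Oas enzymes sense double-stranded RNA and make short adenylate chains that activate RNase L, which cuts RNA; Oasl1 lacks this activity. Oas1a, the most abundant of them, held 131, 129 and 172 CPM in the RhoA KO libraries, against 359.6, 361 and 455 CPM in control libraries. No RhoA KO library reached the control range, a 2.73-fold lower level (log2 fold change -1.45 ± 0.15 (SE), edgeR adjusted p = 8.18e-06). Oas1g, its neighbour on chromosome 5 and 97.6% identical to it over 1861 bp, held 98.7, 95.6 and 123 CPM in the RhoA KO libraries, against 323, 326 and 396 CPM in control libraries. Again no library of one group reached the other (log2 fold change -1.72 ± 0.13 (SE), edgeR adjusted p = 1.21e-06). Reads may have been split between this pair, and their printed promoters carry the same overlapping pair of matches at the start site. The ratio of Oas1g to Oas1a per length was 0.609, 0.599 and 0.577 in the RhoA KO libraries, against 0.724, 0.726 and 0.701 in control libraries, lower in all 3 RhoA KO libraries. Oasl2, which carries ubiquitin-like domains, fell most of the family, at -3.01 ± 0.19 (SE; edgeR adjusted p = 2.62e-07). The other 3 were close together, with log2 fold changes of -1.47 ± 0.18 for Oas2, -1.73 ± 0.14 for Oas3 and -1.79 ± 0.14 for Oasl1 (SE), the last a repressor of Irf7 translation in mouse. Summed per length, the family held 225 TPM in the RhoA KO libraries and 611 TPM in control libraries.

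The Ifi200 genes encode nuclear and cytosolic proteins with DNA-binding HIN domains and lie in a cluster on chromosome 1, from 173630917 to 174031810 for the 6 members. All 5 tested members were lower, with a median log2 fold change of -2.77. Ifi209 changed more than any other tested member of the whole list. It held 0.402, 0.380 and 0.302 CPM in the RhoA KO libraries, against 34.2, 37.6 and 30.3 CPM in control libraries. The groups did not overlap, with RhoA KO the lower, a 93.4-fold lower level (log2 fold change -6.55 ± 0.18 (SE), edgeR adjusted p = 1.28e-09). Ifi204, a mouse counterpart of the DNA sensor IFI16, held 2.46, 3.76 and 1.96 CPM in the RhoA KO libraries, against 33.6, 37.2 and 37.7 CPM in control libraries. The groups did not overlap, and RhoA KO replicate 3 was the lowest (log2 fold change -3.72 ± 0.21 (SE), edgeR adjusted p = 1.18e-07). Ifi207 changed least, at -1.64 ± 0.15 (SE; edgeR adjusted p = 4.53e-06), and lies next to Ifi204. The ratio of Ifi209 to Ifi207 per length was 0.0600, 0.0547 and 0.0356 in the RhoA KO libraries, against 1.37, 1.90 and 1.25 in control libraries, so genes of the cluster differed many-fold in how far they were lower. Ifi203 stood at -2.31 ± 0.15 and Ifi211 at -2.77 ± 0.37 (log2 fold change, SE). Ifi205 failed the filter on low counts, with 0, 0 and 0 counts in the RhoA KO libraries, against 31, 14 and 4 counts in control libraries. Against a floor of 3 counts over the RhoA KO group, it was at least 20.8-fold lower; without control replicate 1, which held 31 of the 49 control counts, the bound was 12.6-fold. The transcripts of Ifi203, Ifi204, Ifi205 and Ifi211 are similar to each other or to Mndal, and that of Ifi209 to Ifi214, so their counts are uncertain.

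All 4 Mx and viperin genes were lower, with a median log2 fold change of -3.64. Rsad2 encodes viperin, a radical SAM enzyme that makes a chain-terminating nucleotide, and Cmpk2, a nucleotide kinase encoded next to it on chromosome 12, feeds that reaction. Rsad2 held 1.27, 1.24 and 1.26 CPM in the RhoA KO libraries, against 63.8, 53.6 and 79.2 CPM in control libraries. Every control library exceeded every RhoA KO library, the 3 RhoA KO values were close together, and the level was 52.1-fold lower (log2 fold change -5.70 ± 0.18 (SE), edgeR adjusted p = 1.31e-09). Cmpk2 held 1.65, 2.57 and 2.91 CPM in the RhoA KO libraries, against 7.67, 8.83 and 7.28 CPM in control libraries. The groups did not overlap here either, at a smaller size (log2 fold change -1.74 ± 0.24 (SE), edgeR adjusted p = 1.09e-04). Per length, Rsad2 over Cmpk2 was 0.740, 0.463 and 0.417 in the RhoA KO libraries, against 7.98, 5.83 and 10.4 in control libraries: Rsad2 was above its neighbour in every control library and below it in every RhoA KO library. Mx1 and Mx2, dynamin-like GTPases that trap viral nucleocapsids, had log2 fold changes of -3.40 ± 0.30 and -3.88 ± 0.42 (SE; edgeR adjusted p = 3.25e-06 and 1.39e-05). Inbred mouse strains often carry a defective Mx1, and the counts do not show which form these cells have. Reads may have been split between the pair, and their ratio did not separate the groups.

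The 4 listed genes of the ISG15 system were all lower, and other genes of the system were not examined. The 4 encode the modifier (Isg15), the activating enzyme (Uba7), the ligase (Herc6, the mouse ISG15 ligase) and a protease (Usp18). The protease removes the modifier and also blunts receptor signalling. Isg15 held 0.682, 0.470 and 0.947 CPM in the RhoA KO libraries, against 16.6, 17.4 and 22.6 CPM in control libraries. All 3 RhoA KO libraries lay below every control library, a 27.1-fold lower level (log2 fold change -4.76 ± 0.26 (SE), edgeR adjusted p = 6.59e-08). Usp18 held 66.2, 69.8 and 78.3 CPM in the RhoA KO libraries, against 333, 340.0 and 301 CPM in control libraries. The groups were again apart and each group tight, at a 4.54-fold lower level (log2 fold change -2.18 ± 0.11 (SE), edgeR adjusted p = 5.27e-08). Per length, Usp18 exceeded Isg15 in every library, by 26.3, 40.2 and 22.4 in the RhoA KO libraries, against 5.43, 5.28 and 3.61 in control libraries. This ratio was higher in all 3 RhoA KO libraries, as Isg15 was lower by more than Usp18. Uba7 was lower, at a log2 fold change of -2.05 ± 0.18 (SE; edgeR adjusted p = 3.44e-06), and so was Herc6, at -2.44 ± 0.46 (SE; edgeR adjusted p = 0.00108) from low counts.

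The Parp group, ADP-ribosyl transferases and partners, was lower by less, with a median log2 fold change of -1.44, and 5 of 6 passed as lower. Zc3hav1, or ZAP, which binds CG-rich viral RNA and directs its decay, held 26.2, 26.2 and 16.5 CPM in the RhoA KO libraries, against 33.4, 31.7 and 36.9 CPM in control libraries. RhoA KO replicate 3 was well below the other RhoA KO libraries and all 3 lay below control (log2 fold change -0.57 ± 0.17 (SE), edgeR adjusted p = 0.0159). It lost the call without control replicate 3 (edgeR adjusted p = 0.0570), with scaling by library totals (0.214) and with correction for length (0.0697). Parp12, a mono-ADP-ribosyl transferase, held 4.41, 2.20 and 3.44 CPM in the RhoA KO libraries, against 12.2, 12.6 and 12 CPM in control libraries. No RhoA KO library reached the control range, with a wide spread among the RhoA KO libraries (log2 fold change -1.87 ± 0.23 (SE), edgeR adjusted p = 4.41e-05). Parp10 and Parp14 were lower, at log2 fold changes of -2.32 ± 0.20 and -2.24 ± 0.23 (SE; edgeR adjusted p = 2.73e-06 and 8.40e-06). Parp9 and Dtx3l form an ADP-ribosylating ubiquitin ligase and lie head to head on chromosome 16. Parp9 passed as lower (log2 fold change -1.0 ± 0.17 (SE), edgeR adjusted p = 5.68e-04). Dtx3l held 6.78, 6.35 and 5.82 CPM in the RhoA KO libraries, against 8.59, 9.16 and 7.08 CPM in control libraries. The RhoA KO libraries were all below control by a small margin, and the call missed the threshold (log2 fold change -0.39 ± 0.17 (SE), edgeR adjusted p = 0.0911; 0.0477 without control replicate 3). The ratio of Parp9 to Dtx3l per length was 1.03, 1.19 and 0.981 in the RhoA KO libraries, against 1.74, 1.51 and 1.67 in control libraries, although both genes share 458 exonic bp on opposite strands and the strand setting of the counting is not given.

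The 3 nucleases and helicases were all lower, with a median log2 fold change of -2.94. Isg20, an exonuclease that degrades single-stranded RNA, held 4.81, 3.65 and 5.11 CPM in the RhoA KO libraries, against 56.2, 50.3 and 68.7 CPM in control libraries. The groups did not overlap, with RhoA KO the lower, a 12.9-fold lower level (log2 fold change -3.69 ± 0.17 (SE), edgeR adjusted p = 2.04e-08). Ddx60, a helicase of the RIG-I pathway, held 1.08, 0.526 and 0.460 CPM in the RhoA KO libraries, against 6.18, 5.71 and 4.02 CPM in control libraries. Its groups did not overlap at these low levels (log2 fold change -2.94 ± 0.37 (SE), edgeR adjusted p = 4.56e-05). Helz2, a helicase that coactivates nuclear receptors, had a log2 fold change of -2.21 ± 0.32 (SE; edgeR adjusted p = 1.47e-04).

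The 4 nuclear body and chromatin genes were lower to a like degree, with log2 fold changes between -2.22 and -1.71. Phf11b held 16.7, 19 and 16.9 CPM in the RhoA KO libraries, against 79.4, 80.3 and 85.6 CPM in control libraries. Phf11d, which lies beside it on chromosome 14, held 28.3, 26.4 and 24.1 CPM in the RhoA KO libraries, against 105, 108 and 108 CPM in control libraries. Both PHD-finger genes separated the groups completely with little spread, at log2 fold change -2.22 ± 0.11 (SE), edgeR adjusted p = 3.45e-08 for Phf11b and log2 fold change -2.03 ± 0.11 (SE), edgeR adjusted p = 5.34e-08 for Phf11d. Both share sequence with Phf11a, which adds some uncertainty to their counts. Sp100, a protein of the nuclear bodies that also hold PML, stood at a log2 fold change of -2.18 ± 0.13 (SE, edgeR adjusted p = 2.02e-07). Daxx, a histone H3.3 chaperone in those bodies, stood at -1.71 ± 0.20 (SE, edgeR adjusted p = 2.52e-05).

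Of the 8 remaining genes 6 were lower. Ifi44, a GTP-binding-like protein, held 26.5, 26 and 19.1 CPM in the RhoA KO libraries, against 145, 149.8 and 107 CPM in control libraries. Every control library exceeded every RhoA KO library, a 5.60-fold lower level (log2 fold change -2.49 ± 0.16 (SE), edgeR adjusted p = 3.03e-07). Tor3a, a torsin ATPase of the endoplasmic reticulum, held 25.3, 27.9 and 28.4 CPM in the RhoA KO libraries, against 63.5, 63.2 and 61.6 CPM in control libraries. It was lower by less but with a small error (log2 fold change -1.21 ± 0.10 (SE), edgeR adjusted p = 2.24e-06). Xaf1, a pro-apoptotic antagonist of XIAP, was lower by 11.9-fold (log2 fold change -3.57 ± 0.16 (SE), edgeR adjusted p = 1.42e-08). Rnf213, a very large ubiquitin ligase, stood at -2.54 ± 0.19, and Epsti1, a gene also expressed in stroma, at -1.94 ± 0.33 (log2 fold change, SE; edgeR adjusted p = 7.04e-07 and 6.50e-04). Samd9l, a restriction factor for poxviruses, was lower, at -1.05 ± 0.29 (SE; edgeR adjusted p = 0.0115), a call that was lost without control replicate 1 (0.0535), without replicate 3 of both groups (0.0786) and with scaling by library totals (0.0693).

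Against this background of lower levels, Ifi27l2a and Ifi35 stood at much the same level in both groups. Ifi27l2a, a small hydrophobic protein of the ISG12 family, held 84.5, 77.7 and 102 CPM in the RhoA KO libraries, against 94.1, 87.6 and 83.5 CPM in control libraries. The groups overlapped (log2 fold change -0.01 ± 0.12 (SE), edgeR adjusted p = 0.978), and the 95% interval of the log2 fold change ran from -0.24 to 0.23. Ifi35, a leucine zipper protein released by macrophages, held 107, 104 and 126 CPM in the RhoA KO libraries, against 116, 118 and 122 CPM in control libraries. Here too the libraries overlapped (log2 fold change -0.08 ± 0.11 (SE), edgeR adjusted p = 0.587; interval -0.29 to 0.13). These intervals exclude a 2-fold change, the size that 42 members passed. Genes with short exons were higher on average in the RhoA KO libraries and long ones lower, with all-gene medians of 0.32 in the shortest of 5 length classes and -0.47 in the longest. After correction for length, both genes and Ifitm3 passed as lower, at -0.28 for Ifi27l2a, -0.35 for Ifi35 and -0.50 for Ifitm3 (log2 fold change; edgeR adjusted p = 0.0403, 0.0122 and 0.00467).

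The membrane proteins held both the most abundant members and the exception in direction. Ifitm2 and Ifitm3, of a cluster on chromosome 7 that also holds Ifitm1 between them, embed in membranes and hinder viral fusion. Ifitm2 held 970.2, 919 and 1166 CPM in the RhoA KO libraries, against 382, 277 and 417 CPM in control libraries. The RhoA KO libraries were all above control, a 2.84-fold higher level (log2 fold change 1.51 ± 0.16 (SE), edgeR adjusted p = 1.38e-05). Ifitm2 shares 268 exonic bp with the gene model Gm45717, so a part of its counts is uncertain; that model held 7863, 8703 and 9363 counts in the RhoA KO libraries, against 3580, 7719 and 2895 counts in control libraries. Ifitm3 held 2379, 2292 and 3135 CPM in the RhoA KO libraries, against 3174, 2861 and 3136 CPM in control libraries. RhoA KO replicate 3 reached the control range while the other RhoA KO libraries were below it (log2 fold change -0.23 ± 0.14 (SE), edgeR adjusted p = 0.214). Without RhoA KO replicate 3 it passed as lower, at -0.38 (edgeR adjusted p = 0.0128). Within each library, Ifitm2 over Ifitm3 per length was 0.422, 0.415 and 0.385 in the RhoA KO libraries, against 0.125, 0.100 and 0.138 in control libraries, so the make-up of the pair differed in every library. Rtp4, a chaperone of surface receptors, held 21.9, 22.1 and 24.5 CPM in the RhoA KO libraries, against 66.3, 60.7 and 46.2 CPM in control libraries. It was lower in all 3 RhoA KO libraries (log2 fold change -1.34 ± 0.14 (SE), edgeR adjusted p = 1.09e-05). Bst2, or tetherin, which holds budding virions at the surface, was lower as well (log2 fold change -1.96 ± 0.31 (SE), edgeR adjusted p = 2.72e-04).

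Levels per length spanned a wide range. Ifitm3 averaged 6257 ± 382 TPM in the RhoA KO libraries and 6680.4 ± 348 TPM in control libraries (SD, n = 3 each), and Ifitm2 2546 ± 90.2 TPM in the RhoA KO libraries and 808 ± 141 TPM in control libraries (SD, n = 3 each), the highest in both groups. Next in control libraries came Oas1a at 307 TPM and Ifi27l2a at 283 TPM, which did not differ beyond their spread. In the RhoA KO libraries 5 members exceeded 100 TPM, namely both Ifitm genes, Ifi27l2a, Oas1a and Ifi35, against 8 in control libraries. Under 1 TPM were 17 members in the RhoA KO libraries and 4 in control libraries. Rsad2 stood 40th of the 49 in the RhoA KO libraries and 17th in control libraries, and Ifi209 45th and 21st, so both stood near the middle of the list in control libraries and near its low end in RhoA KO. The plot of levels shows 13 members from the most abundant to Ifi209.

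**Figure D3:**
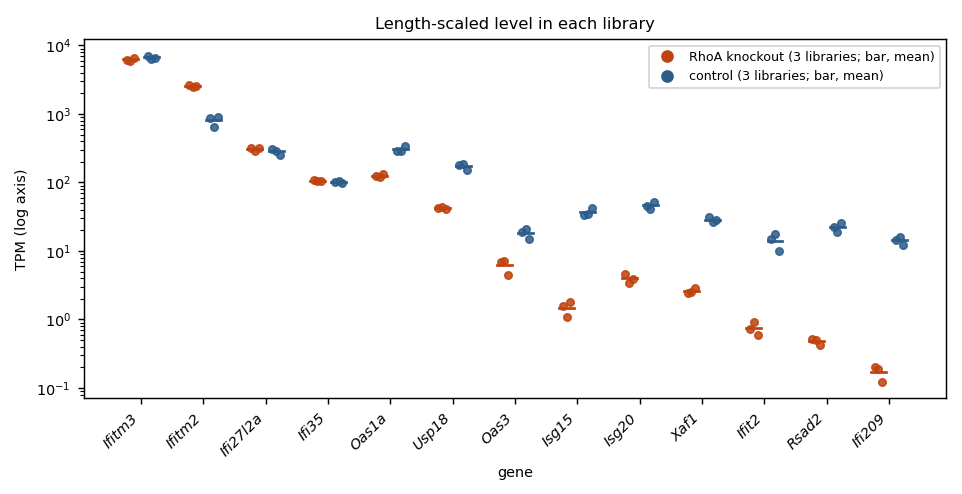
Level per length (TPM, log axis) of 13 members in each library, RhoA KO in red at the left of each pair and control in blue at the right, with a bar at the mean of 3 libraries. Ifitm2 is higher in RhoA KO, Ifitm3, Ifi27l2a and Ifi35 lie at like levels, and the other 9 are lower. Ifit2, Rsad2 and Ifi209 fall to below 1 TPM.

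The ratios given above, with another for Ifi27l2a and its neighbour Ifi27, compare genes within a library and so do not depend on scaling between libraries. The 9 pairs were chosen after values were seen, so no test or count is given. Ifi27l2a over Ifi27 per length was 2.13, 1.86 and 2.22 in the RhoA KO libraries, against 13.6, 13.6 and 8.54 in control libraries, since Ifi27, a relative of Ifi27l2a outside the list, was 5.51-fold higher in the RhoA KO libraries (log2 fold change 2.46 ± 0.16 (SE), edgeR adjusted p = 2.45e-07). The plot of pair ratios shows these values in every library.

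**Figure D4:**
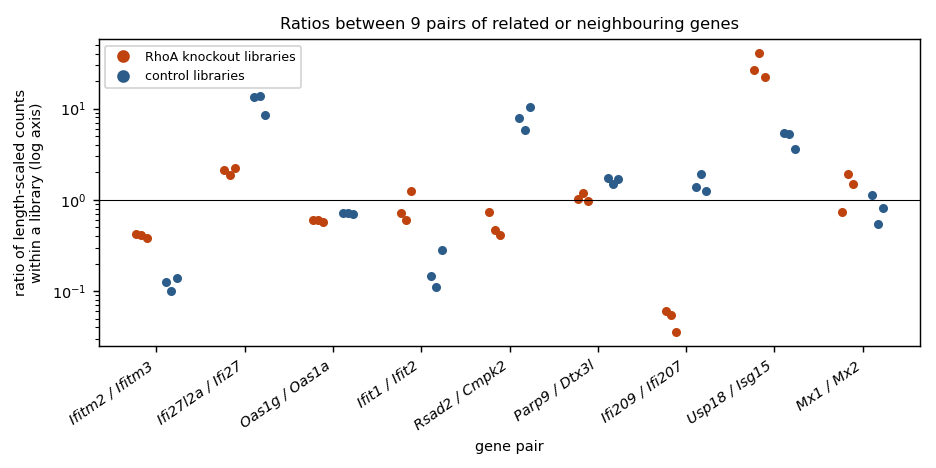
Ratio of the first to the second gene of each of 9 pairs, from counts divided by exon length, within each library (log axis; RhoA KO in red at the left of each pair, control in blue at the right). The line marks equal levels; the groups overlap for Mx1 / Mx2, and Rsad2 / Cmpk2 lies below the line in RhoA KO and above it in control.

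Some protein-coding relatives that the list leaves out were looked up by symbol after the members' values were seen. The symbols searched were those of the Ifit, Ifitm, Oas, Ifi200, Ifi27, Ifi44, Phf11 and Mnda type. Relatives in the other subfamilies, such as the Parp group, were not looked up, so the counts do not cover all relatives. Of 23 such genes 12 were tested, and 7 were lower, 2 higher and 3 not called, beside 22.3% lower and 21.0% higher among all genes. Lower were Ifi202b, Ifi208, Ifi214 and Mndal of the Ifi200 cluster, Ifi44l, Phf11a and Phf11c. Ifi202b held 5.74, 6.02 and 6.23 CPM in the RhoA KO libraries, against 66.8, 84.5 and 83.1 CPM in control libraries. All 3 RhoA KO libraries lay below every control library (log2 fold change -3.70 ± 0.13 (SE), edgeR adjusted p = 3.01e-09). Ifi214 had 0, 0 and 0 counts in the RhoA KO libraries, against 228, 268 and 196 counts in control libraries, at least 293-fold lower against a floor of 3 counts over the RhoA KO group. The 2 higher relatives were Ifi27 and Ifitm6, Ifitm6 by 3.89-fold (log2 fold change 1.96 ± 0.14 (SE), edgeR adjusted p = 6.29e-07) and next to Ifitm3 on chromosome 7.

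Outside the list, 73 genes of interferon production, signalling and response were matched, and 58 were tested. Of these 28 were lower, 9 higher and 21 not called, beside 22.3% lower and 21.0% higher among all genes. Lower genes were thus above and higher genes below the all-gene share. The 58 include 20 other interferon-induced antiviral genes, which are not upstream and supply 12 of the lower and 2 of the higher calls. The remaining lists do not hold upstream genes alone, since genes in them, such as Irf7, are themselves induced by interferon. The 11 ligand genes were almost without counts: Ifnb1 had 0, 0 and 0 counts in the RhoA KO libraries, against 20, 18 and 0 counts in control libraries, Ifna4 had 9 counts in control replicate 2, Ifng had 4 in control replicate 1, and the other 8 were at 0. None passed the filter on low counts, so ligand RNA could not be compared at this depth, where a floor of 3 counts over a group corresponds to 0.0121 CPM in RhoA KO and 0.0154 CPM in control. Receptor genes went both ways. Ifnar1 was lower at -0.58 ± 0.18 and Ifnar2 higher at 0.61 ± 0.13 (log2 fold change, SE; edgeR adjusted p = 0.0230 and 0.00204), and the Ifnar1 call was lost without control replicate 1 (0.104), RhoA KO replicate 2 (0.0576) or RhoA KO replicate 3 (0.0731), and with scaling by library totals (0.195) or correction for length (0.0683). Ifngr1, which binds interferon gamma, held 26.7, 26.2 and 24.8 CPM in the RhoA KO libraries, against 7.21, 6.29 and 7.31 CPM in control libraries. All 3 RhoA KO libraries lay above control (log2 fold change 1.90 ± 0.13 (SE), edgeR adjusted p = 4.28e-07).

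All 5 transducer genes examined were lower, against 22.3% of all genes. Stat2 held 1.91, 2.21 and 1.41 CPM in the RhoA KO libraries, against 16.3, 16.8 and 14.9 CPM in control libraries. The groups did not overlap, and the level was 8.64-fold lower (log2 fold change -3.11 ± 0.20 (SE), edgeR adjusted p = 2.45e-07). Irf9, its DNA-binding partner, was lower by far less, at -0.55 ± 0.15 (SE; edgeR adjusted p = 0.0101; 0.156 with scaling by library totals). Jak1, Jak2 and Tyk2 stood at -0.61 ± 0.12, -2.51 ± 0.28 and -0.82 ± 0.23 (log2 fold change, SE). Among the other regulatory factors and IRF2-binding proteins, 2 of 8 were lower and 1 higher, numbers near the all-gene shares of 22.3 and 21.0%. Irf7, itself induced by interferon and the driver of interferon alpha genes, held 24.1, 20.9 and 22.6 CPM in the RhoA KO libraries, against 147, 165 and 154 CPM in control libraries. No RhoA KO library came near control (log2 fold change -2.78 ± 0.11 (SE), edgeR adjusted p = 7.73e-09). Irf8, a myeloid factor, was lower at -2.12 ± 0.12 (SE). Irf3, which starts the first wave of interferon beta, passed as higher (log2 fold change 0.46 ± 0.17 (SE), edgeR adjusted p = 0.0412), although its groups overlapped and the call was lost without control replicate 1 (0.156), control replicate 2 (0.167), RhoA KO replicate 1 (0.150) or RhoA KO replicate 2 (0.120).

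Among sensors and their adaptors and kinases 6 of 14 were lower and 1 higher, against 22.3 and 21.0% of all genes. Zbp1, a sensor of left-handed nucleic acid, held 0.658, 0.660 and 0.815 CPM in the RhoA KO libraries, against 9.09, 10.5 and 10.8 CPM in control libraries. No RhoA KO library reached the control range (log2 fold change -3.83 ± 0.22 (SE), edgeR adjusted p = 1.11e-07). The RNA sensors Ddx58 (RIG-I), Ifih1 (MDA5) and Dhx58 (LGP2) stood at -2.51 ± 0.18, -2.15 ± 0.20 and -2.14 ± 0.17 (log2 fold change, SE). The adaptor Ticam1 (TRIF) and the kinase Ikbke were lower as well, at -1.26 ± 0.31 and -0.49 ± 0.14 (log2 fold change, SE; edgeR adjusted p = 0.00607 and 0.0133). Not called were the sensors Cgas at -1.08 ± 0.44, Tlr3 at 0.07 ± 0.67 and Tlr7 at -0.01 ± 0.24, the adaptors Mavs at 0.11 ± 0.16, Tmem173 (STING) at 0.01 ± 0.26 and Myd88 at 0.21 ± 0.17, and the kinase Tbk1 at -0.33 ± 0.21 (log2 fold change, SE). Tlr4, the lipopolysaccharide receptor, held 4.06, 4.80 and 3.31 CPM in the RhoA KO libraries, against 2.10, 1.73 and 2.09 CPM in control libraries and passed as higher (log2 fold change 1.04 ± 0.26 (SE), edgeR adjusted p = 0.00631). Among the negative regulators 2 of 6 were lower and 2 higher, beside 22.3 and 21.0% of all genes. Socs3, a feedback inhibitor of cytokine receptors, had 7, 35 and 4 counts in the RhoA KO libraries, against 166, 125 and 244 counts in control libraries, few counts with a wide spread (log2 fold change -3.95 ± 0.65 (SE), edgeR adjusted p = 3.93e-04). Pias1, which restrains STAT binding to DNA, held 18.5, 18.5 and 14.9 CPM in the RhoA KO libraries, against 6.78, 7.47 and 6.21 CPM in control libraries. It was higher in all 3 RhoA KO libraries (log2 fold change 1.34 ± 0.15 (SE), edgeR adjusted p = 2.23e-05).

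Of 20 other interferon-induced antiviral genes 12 were lower and 2 higher, beside 22.3 and 21.0% of all genes. Trim25, a ubiquitin ligase that activates RIG-I, held 7.38, 6.50 and 8.35 CPM in the RhoA KO libraries, against 33.8, 40.7 and 33.9 CPM in control libraries. The groups were apart (log2 fold change -2.29 ± 0.14 (SE), edgeR adjusted p = 2.14e-07). Psmb8, a catalytic subunit of the immunoproteasome, held 187, 188 and 236 CPM in the RhoA KO libraries, against 100.2, 96.7 and 99.2 CPM in control libraries. It was 2.06-fold higher, with every RhoA KO library above control (log2 fold change 1.05 ± 0.12 (SE), edgeR adjusted p = 1.70e-05). Tap1, the peptide transporter gene that shares a promoter region with Psmb9, was lower at -1.96 ± 0.15, while Psmb9 was higher at 0.53 ± 0.20 (log2 fold change, SE; edgeR adjusted p = 1.01e-06 and 0.0468). Adar and Eif2ak2 (PKR), which edit and sense double-stranded RNA, were lower by less than most members, at -1.05 ± 0.16 and -0.47 ± 0.16 (SE). The plot of the 58 tested genes sets these lists side by side.

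**Figure D5:**
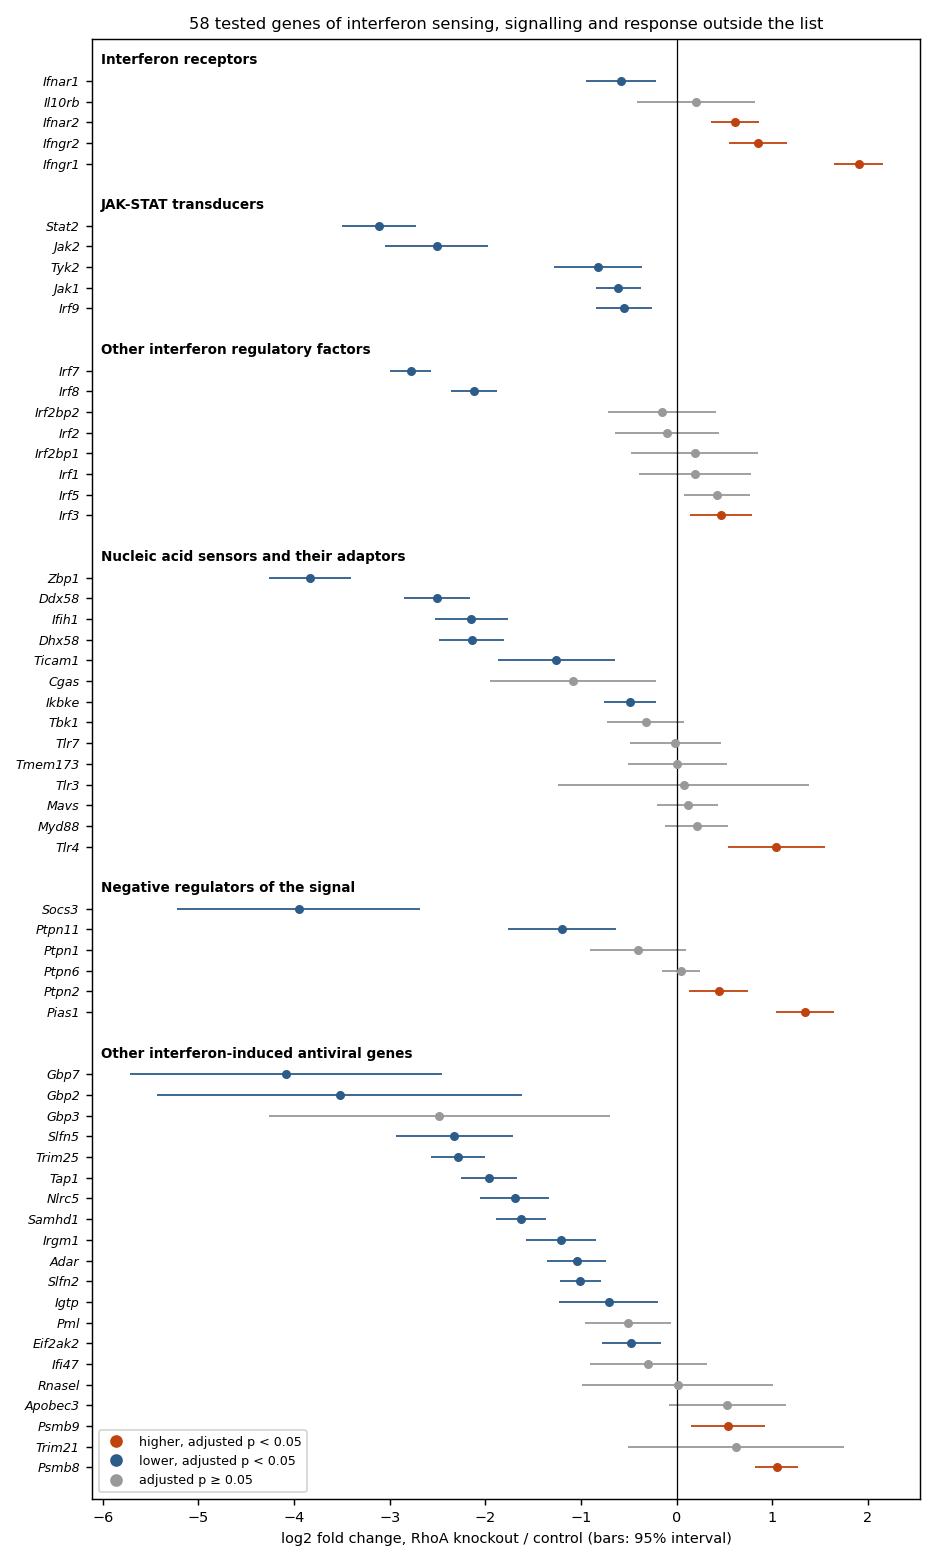
Log2 fold change of RhoA KO over control for 58 tested genes of interferon sensing, signalling and response that are not members, by list, with bars of 95% intervals from the edgeR fit. All 5 JAK-STAT transducers plotted are lower (blue), while the receptors, other regulatory factors and sensors hold lower, higher (red) and uncalled (grey) genes.

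Some features of the members bear on how firmly these values can be read. Of the 48 tested members, 30 were not marked for a copy or overlapping gene past the limits used. Of these 27 were lower, with a median log2 fold change of -2.0. The 30 include Mx1, since the search marked Mx2 for its match to Mx1 but not Mx1 itself. Beside those named above, Herc6, Parp10, Samd9l and Sp100 have counts that may be shared with such genes. Within a group, the members' log2 levels had a median SD of 0.257 in the RhoA KO libraries and 0.178 in control libraries, beside 0.204 and 0.222 for all genes tested. Without replicate 3 of both groups, 49 members were tested, 44 were lower and 1 higher, with a median of -2.16. Members with and without the GAAANNGAAA match had median log2 fold changes of -2.22 (15 tested) and -2.04 (22 tested). By exon length the members' medians were -1.10 in the shortest of 5 length classes of all genes and -2.0, -2.17, -2.05 and -2.24 in the longer classes, in each case below the all-gene medians of 0.32, 0.26, 0.04, -0.19 and -0.47. Among the members without a match, Ifi209 and Ifit2 were at least 16-fold lower, and Ifitm2, which was higher, has a match at -46.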

How the data were processed

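The members, gene lists and tests were chosen with earlier results of these data known. The whole-number counts per gene are used as the authors deposited them, without normalization. The submitters' processing notes name the build GRCm38. The sources used here give no aligner, counter or strand setting. In all 6 libraries, multiples of 4 (to 40) exceeded neighbouring count values in frequency by a factor of 1.32 to 1.45. Of 55487 gene IDs, 55227 were matched to GENCODE M21, which gave symbols, coordinates and exon lengths, and 0 value columns were left out.

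All 12930 genes that passed filterByExpr were fitted in edgeR 4.0.16 (R 4.3.3) with TMM factors, robust glmQLFit and glmQLFTest, and Benjamini-Hochberg adjustment at 0.05. Members were read from that fit. CPM are TMM-scaled. TPM were computed from counts and exon-union length, without TMM. Standard errors come from the F statistic. In 5 simulated data sets with 12930 genes, 200 of them changed, the share called was 14.8% where the fold was 1.5. It was 51.4% where the fold was 2 and 83.7% where it was 4. Far more genes, 43.2%, were called in the data, where the adjustment is therefore less strict. These shares are thus not the call rates of this comparison. Replicate pairs differed beyond sampling noise (chi-square per degree of freedom 20.7 between controls 1 and 2 and 26.3 between RhoA KO 1 and 2, at least 89.0 and 80.8 for replicate 3).

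Shared reads were sought by blastn 2.17.0 between transcripts (95% identity over 200 bp, with 10% or more of a member's count in some library) and by exonic overlap. Floors of 3 counts cover counting error only. The 95% intervals use the normal quantile of the SE, which includes the spread among these libraries. Values per library are given for the 2 called members with the highest TPM in each subfamily, members called higher or not called, and the 3 most negative fold changes. Pathway genes outside the members were taken as those with the smallest p in each direction per list, plus Ifnb1, Stat2, Irf9, Irf7, Ifnar1 and Ifnar2. Others named were chosen after their values were seen. The alternatives tried were DESeq2 1.42.0, other scalings and filters, length correction (per-library offsets), counts divided by 4, removal of the 10 most abundant genes, a replicate block, and leaving out libraries. The result of 1 pathway gene is not reported here.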

Additional observations from a re-analysis of the deposited data

How the results depend on the processing

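Over 16 alternatives, 749 of 768 results for single members kept direction and call, 6 lost and 6 gained the call, and 7 changed sign. All 16 alternatives left 42 members as they were. The count of members lower ran from 41 to 45, with 1 higher throughout, and the count of all genes called from 4845 to 5863. The values that changed sign belong to genes near 0. Ifi27l2a stood at 0.0163 with RLE size factors, 0.0162 with DESeq2 and 0.154 with library totals. Ifi35 stood at 0.0867 with library totals (log2 fold changes). With replicates left out, Ifi27l2a ranged from -0.159 to 0.0598 and Rhoa from 0.344 to 0.451, with edgeR adjusted p = 0.0645 without control replicate 1 and 0.0741 without RhoA KO replicate 1. With no filter on low counts, Ifi205 was tested and 44 members were lower. The setting without replicate 3 of both groups was chosen after seeing the data.

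Replicate numbers are shared between groups, but same-numbered libraries did not deviate together (correlations -0.0059, 0.028 and 0.014), which gave no ground for pairing. These correlations cannot show whether same-numbered libraries shared a batch, and replicate 3 stood apart in both groups. With the replicate block 5372 genes were called, 43 members lower, 1 higher and 33 pathway genes outside the members. Nothing in the labels ties the samples to a batch or date, so no value within batches was possible. Ligand genes near 0 counts could not be compared at this depth.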
